A study of Homo sapiens with 2 samples.

Results

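Aminoacyl-tRNA synthetase genes were compared between a colorectal cancer cell line made resistant to 5-fluorouracil (5-FU) and the line it came from. The genes were chosen by name from the protein-coding rows of the gene tables. A row was taken when its symbol was 1 letter followed by ARS or ARS2, or was FARSA, FARSB or EPRS. This gave 35 of 36953 gene rows, of which 21102 are protein coding. The row named HARS2 (ENSG00000125821, chromosome 20) is described in the files as a D-tyrosyl-tRNA deacylase, an enzyme that removes D-amino acids from tRNA and not a synthetase. The other 34 were described as synthetases, 19 cytosolic and 15 mitochondrial by the ending 2 of the name. The rule itself uses no measured value, but it was chosen with earlier results of these data known. All 35 passed the minimum of 100 reads over both libraries.

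MIP/5FU is a clone of MIP101 that was selected by passage in rising concentrations of 5-FU, a fluorinated uracil used against colorectal cancer that inhibits thymidylate synthase and is built into RNA. Its IC50 for 5-FU is 10-fold higher per the labels, and it was maintained in 5 µM drug. MIP101 is the 5-FU-sensitive parent line, derived from a liver metastasis of a colorectal cancer. Both lines were grown for about 48 hours without drug or antibiotics before RNA was taken, so neither culture was exposed to 5-FU in that time. MIP/5FU is 1 clone, and a feature of that clone cannot be told apart from a feature of resistance.

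Each line was sequenced as 1 library of polyadenylated RNA. Differences between the lines could not be checked against replicates, so no p-value is given. Intervals cover counting error only, and since PCR copies were not marked by molecular identifiers, reads are not independent molecules. Reads assigned to genes numbered 109693681 in MIP/5FU and 200141071 in MIP101. Levels are given in RPM, the reads of a gene scaled to the total of gene reads, and ratios as the log2 of MIP/5FU over MIP101. Of the colorectal epithelial markers 9 of 9 were detected, with a summed level of 8742 RPM in MIP/5FU and 7858 RPM in MIP101. Most of the sum came from KRT8 (3844 RPM in MIP/5FU, 3309 RPM in MIP101) and KRT18 (3307 RPM in MIP/5FU, 2790 RPM in MIP101). CDX2 had 214 RPM in MIP/5FU and 238 RPM in MIP101. CDX1 was low, with 0.47 RPM in both lines (52 reads in MIP/5FU and 95 in MIP101). LGALS4 was also low, with 0.72 RPM in MIP/5FU (79 reads) and 1.79 RPM in MIP101 (358 reads). VIL1 and LGALS4 were more than 2-fold lower in MIP/5FU. Markers of other cell types had far lower sums. These sums are given in reads, which are not scaled to the library totals. The 4 hepatocyte markers found in the table summed to 112 reads in MIP/5FU and 90 in MIP101, with APOA1 and TTR at 0 in both. ALB among these had 0.62 RPM in MIP/5FU and 0.34 RPM in MIP101. The 5 immune markers summed to 267 reads in MIP/5FU and 319 in MIP101. Those with at least 100 reads over both libraries, CD14 and LYZ, summed to 2.28 RPM in MIP/5FU and 1.52 RPM in MIP101. The 5 endothelial and stromal markers summed to 1825 reads in MIP/5FU and 2547 in MIP101, nearly all from PDGFRB, with CDH5 and COL1A2 at 0 in both. PDGFRB had 16.3 RPM in MIP/5FU and 12.3 RPM in MIP101. The part of these markers in the results was not tested.

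Aminoacyl-tRNA synthetases attach each amino acid to its tRNA and so set the accuracy of the genetic code. The cytosol and the mitochondrion use separate sets, both encoded in the nucleus, while GARS and KARS each supply both compartments from a single gene. Several cytosolic synthetases are held together with scaffold proteins in a multisynthetase complex. Transcription of many cytosolic synthetase genes is raised by the factor ATF4 when uncharged tRNA accumulates. ATF4 acts through C/EBP-ATF response elements, of which TGATGCAA is a common spelling.

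Promoter sequences were read because the ATF4 element is the best known control that cytosolic synthetase genes share. This step was not planned and was run after the gene ratios were computed. The RefSeq promoter table (GRCh38.p14) covers 250 bases before to 50 bases after each start, and 28 of the 34 synthetase genes matched it, 15 cytosolic and 13 mitochondrial. LARS, AARS2, VARS, YARS and DARS are among those not in the table. On either strand, TGATGCAA was present for 6 of 15 cytosolic genes and for 0 of 13 mitochondrial genes, beside 1.08% of all 27305 genes in the table, a gene being counted when any of its promoters held the motif. The 6 windows are shown in the direction of the gene, 5′ to 3′, with the element in capitals. All but NARS carry it on the opposite strand.

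AARS: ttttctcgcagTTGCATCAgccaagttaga
CARS: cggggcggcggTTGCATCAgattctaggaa
IARS: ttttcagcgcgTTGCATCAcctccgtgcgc
MARS: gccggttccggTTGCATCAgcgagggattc
NARS: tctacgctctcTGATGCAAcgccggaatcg
TARS: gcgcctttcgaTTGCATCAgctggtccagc

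The windows lie on GRCh38.p14 at chr16:70289675-70289704 on the minus strand for AARS, chr11:3057407-3057436 (minus) for CARS and chr9:92293692-92293721 (minus) for IARS. They lie at chr12:57488053-57488082 (plus) for MARS, chr18:57621804-57621833 (minus) for NARS and chr5:33440956-33440985 (plus) for TARS. In 5 of the 6 the element begins within 15 bases of the annotated start, and in AARS it begins at -187. The looser spelling TGATGNAA, which includes TGATGCAA, was found for 7 of 15 cytosolic and 1 of 13 mitochondrial genes and for 4.46% of all genes. The additional cytosolic gene was GARS, whose element differs at the free base N, and the mitochondrial one was YARS2.

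GARS: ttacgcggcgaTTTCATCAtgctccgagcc

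The GARS window lies at chr7:30594834-30594863 on the plus strand. Other motifs were searched on both strands. The E-box CACGTG, which MYC can bind, was found for 1 of 15 cytosolic (IARS) and 3 of 13 mitochondrial genes (CARS2, EARS2 and MARS2), beside 8.77% of all genes. The ETS-type motif CCGGAAG was found for 9 of 15 cytosolic and 6 of 13 mitochondrial genes, beside 12.2% of all genes. A match is a description of letters and not a measured binding site.

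Cytosolic synthetase genes were, on the whole, slightly lower in MIP/5FU. The median log2 ratio over the 19 genes was -0.13, with a range of -0.70 to 0.39, while over all 15382 genes with at least 100 reads it was 0.03, with quartiles of -0.22 and 0.27. None was 2-fold higher or lower with a 95% interval excluding 0, beside 2.53% of all tested genes higher and 3.09% lower. At 1.5-fold, 0 were higher and 1 was lower, beside 8.67% and 8.14% of all tested genes. The interval lay below 0 for 14 of 19, beside 35.7% of all tested genes, and above 0 for 3 of 19 (SARS, GARS and TARS), beside 39.8%. It included 0 for DARS and HARS. Intervals exclude 0 more readily at higher depth. In MIP/5FU the median of the authors' normalized coverage per base was 606 for cytosolic genes and 65.0 for all tested genes. Shares of intervals, here and for later groups, are therefore not matched for depth. The reads of the 19 genes summed to 4531 RPM in MIP/5FU and 5076 RPM in MIP101, 1.12-fold lower.

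**Figure D1:**
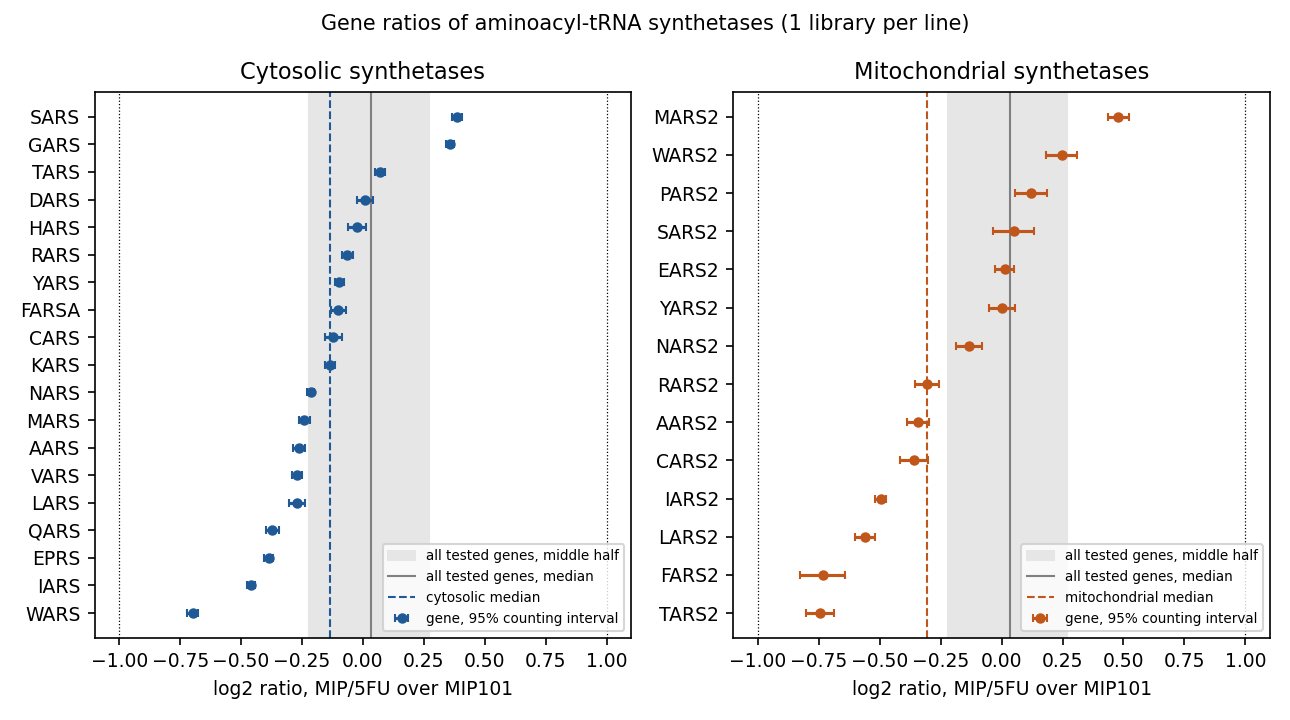
Log2 ratio of MIP/5FU over MIP101 for each of the 19 cytosolic (left) and for 14 of the 15 mitochondrial (right) synthetase genes, 1 library per line. Bars are 95% counting intervals, the grey band runs from the lower to the upper quartile of all 15382 tested genes, dashed lines mark the median of each whole group, and dotted lines mark 2-fold. All genes drawn lie inside the 2-fold lines, and the lowest and the highest are the mitochondrial TARS2 (-0.75) and MARS2 (0.48).

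WARS, the cytosolic tryptophanyl-tRNA synthetase and a gene known to be induced by interferon, was the lowest cytosolic member. It had 175 RPM in MIP/5FU (19175 reads) and 284 RPM in MIP101 (56789 reads), 1.62-fold lower (95% counting interval 1.60 to 1.65). WARS (ENSG00000140105) lies on chromosome 14 from 99869878 to 99912433 on hg18. IARS, the isoleucyl enzyme (chromosome 9, 94012446 to 94095819), had 416 RPM in MIP/5FU and 571 RPM in MIP101, 1.37-fold lower (1.36 to 1.39). EPRS, a fusion of the glutamyl and prolyl enzymes (chromosome 1, 218208567 to 218286623), had 344 RPM in MIP/5FU and 450 RPM in MIP101, 1.31-fold lower (1.29 to 1.32). These 3 had the lowest ratios of the cytosolic genes. QARS, the glutaminyl enzyme, had 147 RPM in MIP/5FU and 191 RPM in MIP101, a log2 ratio of -0.37. LARS, the leucyl enzyme, also known as a leucine sensor upstream of mTORC1, had 102 RPM in MIP/5FU and 124 RPM in MIP101, a log2 ratio of -0.27.

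At the other end, SARS, the seryl enzyme (ENSG00000031698, chromosome 1, 109558063 to 109582308), had 281 RPM in MIP/5FU and 215 RPM in MIP101, 1.31-fold higher (1.29 to 1.33). GARS, the glycyl enzyme of both compartments (ENSG00000106105, chromosome 7, 30600706 to 30640168), had 433 RPM in MIP/5FU and 338 RPM in MIP101, 1.28-fold higher (1.27 to 1.30). These were the cytosolic genes above the upper quartile of all tested genes. TARS, the threonyl enzyme, had 286 RPM in MIP/5FU and 273 RPM in MIP101, a log2 ratio of 0.07 (0.05 to 0.09). DARS, the aspartyl enzyme, had 118 RPM in MIP/5FU and 117 RPM in MIP101. HARS, the histidyl enzyme, had 80.2 RPM in MIP/5FU and 81.6 RPM in MIP101. These last values differ by less than their counting error.

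The other 9 cytosolic genes had log2 ratios between -0.27 and -0.06, all with intervals below 0. MARS (methionine) had 228 RPM in MIP/5FU and 269 RPM in MIP101, 1.18-fold lower (1.16 to 1.20), and FARSA, a subunit of the phenylalanyl enzyme, had 132 RPM in MIP/5FU and 142 RPM in MIP101, 1.07-fold lower (1.05 to 1.09). VARS (valine), AARS (alanine), MARS and NARS (asparagine) were at -0.27, -0.26, -0.24 and -0.22. KARS (lysine), CARS (cysteine), FARSA, YARS (tyrosine) and RARS (arginine) were at -0.13, -0.12, -0.10, -0.10 and -0.06. NARS was the most abundant synthetase mRNA, with 528 RPM in MIP/5FU and 613 RPM in MIP101.

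The 8 enzymes of the multisynthetase complex (EPRS, LARS, IARS, MARS, QARS, RARS, KARS and DARS) had a median log2 ratio of -0.26, with 7 intervals below 0 and 0 above, beside 35.7% and 39.8% of all tested genes. The 11 cytosolic genes outside the complex had a median of -0.10, with 7 below 0 and 3 above, beside the same shares. Of the scaffold proteins, EEF1E1 (also known as AIMP3) had 42.9 RPM in MIP/5FU and 70.3 RPM in MIP101, 1.64-fold lower. The others, listed under the older symbols JTV1 (AIMP2) and SCYE1 (AIMP1), were at log2 ratios of 0.05 and 0.03. The components of this complex therefore had mRNA ratios from -0.71 to 0.05. Across both compartments, the 17 class I enzymes had a median of -0.27 and the 16 class II enzymes a median of -0.12, with EPRS counted in neither since it holds both folds.

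The 6 cytosolic genes with TGATGCAA in the promoter window had a median log2 ratio of -0.23, from -0.46 for IARS to 0.07 for TARS. The 9 cytosolic genes whose windows lack it had a median of -0.10, from -0.70 for WARS to 0.39 for SARS. The range of the first group lies wholly within that of the second. Of the 6, TARS alone had a positive ratio.

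Mitochondrial synthetase genes spread more widely than cytosolic ones, from -0.75 to 0.48 on the log2 scale, with a median of -0.31 over 15 genes. Again 0 were 2-fold higher or lower, beside 2.53% and 3.09% of all tested genes. At 1.5-fold 3 were lower and 0 higher, beside 8.14% and 8.67%. The interval lay below 0 for 9 of 15, beside 35.7% of all tested genes, and above 0 for 3 (MARS2, WARS2 and PARS2), beside 39.8%. It included 0 for SARS2, EARS2 and YARS2. Their reads summed to 766 RPM in MIP/5FU and 941 RPM in MIP101, 1.23-fold lower. The interquartile range of the mitochondrial ratios was 0.56 log2 units and that of the cytosolic ratios 0.23, beside 0.49 for all tested genes.

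TARS2, the mitochondrial threonyl-tRNA synthetase, had the lowest ratio of all members. It had 30.3 RPM in MIP/5FU (3319 reads) and 50.7 RPM in MIP101 (10156 reads), 1.68-fold lower (1.61 to 1.74). TARS2 (ENSG00000143374) lies on chromosome 1 from 148726517 to 148746702. FARS2, the single-chain mitochondrial phenylalanyl enzyme (chromosome 6, 5206583 to 5716815), had 11.6 RPM in MIP/5FU and 19.3 RPM in MIP101, 1.66-fold lower (1.56 to 1.77). Both were among the mitochondrial genes past 1.5-fold.

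LARS2, the leucyl enzyme, had 61.3 RPM in MIP/5FU and 90.4 RPM in MIP101, 1.47-fold lower (1.43 to 1.52). IARS2, the isoleucyl enzyme and the most abundant mitochondrial member, had 184 RPM in MIP/5FU and 259 RPM in MIP101, 1.41-fold lower (1.39 to 1.43). CARS2, AARS2, RARS2 and NARS2, for cysteine, alanine, arginine and asparagine, had log2 ratios of -0.36, -0.34, -0.31 and -0.13, each with an interval below 0.

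MARS2, the mitochondrial methionyl enzyme (ENSG00000152428, chromosome 2, 198278332 to 198281358), was the highest of all 34 in ratio. It had 68.0 RPM in MIP/5FU (7462 reads) and 48.8 RPM in MIP101 (9772 reads), 1.39-fold higher (1.35 to 1.44). WARS2, the tryptophanyl enzyme, had 29.9 RPM in MIP/5FU and 25.2 RPM in MIP101, 1.19-fold higher (1.13 to 1.24). PARS2, the prolyl enzyme, had 26.9 RPM in MIP/5FU and 24.7 RPM in MIP101, a log2 ratio of 0.12 (0.06 to 0.19). SARS2 (serine) had 16.4 RPM in MIP/5FU and 15.9 RPM in MIP101, EARS2 (glutamate) 77.7 RPM in MIP/5FU and 77.0 RPM in MIP101, and YARS2 (tyrosine) 39.3 RPM in both. For these 3 the counting interval of the log2 ratio includes 0. EARS2 and SARS2 overlap UBPH and MRPS12 on the opposite strand, as YARS does S100PBP, and libraries that mark no strand cannot tell reads of the overlap apart.

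The median of the cytosolic ratios was 0.17 log2 units above that of the mitochondrial ratios. It was 0.092 above without GARS and KARS, 0.085 with the row named HARS2 counted as mitochondrial and 0.067 with the synthetases under older symbols added. Without EARS2, MARS, SARS2 and YARS, which another gene overlaps, it was 0.21 above. Both groups cover nearly the same range, and the difference is smaller than the interquartile range of either group. The row named HARS2, counted in neither, had 43.8 RPM in MIP/5FU and 40.2 RPM in MIP101, a log2 ratio of 0.12. Synthetases listed under older symbols, which the name rule does not reach, were FARSLB (now FARSB) and HARSL (now HARS2) at 0.04 each, VARSL (now VARS2) at -0.20 and TARSL2 at -0.38.

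For 15 amino acids both a cytosolic and a mitochondrial gene were measured, with EPRS used for glutamate and for proline. The mitochondrial gene had the lower ratio in 9 pairs and the cytosolic gene in 6. Both genes were below 0 in 7 pairs, both above 0 in 1 (serine), and on opposite sides of 0 in 7. The intervals of DARS, EARS2, SARS2 and YARS2 included 0. DARS, EARS2 and YARS2 turned below 0 under the other scalings given at the end, so this split by sign depends on scaling. The median difference of cytosolic minus mitochondrial ratio was 0.08. The widest pair was tryptophan, where WARS was 0.94 log2 units below WARS2. Methionine went the same way, with MARS 0.72 below MARS2. Threonine and phenylalanine went the other way. There TARS was 0.81 above TARS2 and FARSA 0.63 above FARS2. The closest pair was isoleucine, with IARS at -0.46 and IARS2 at -0.50.

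**Figure D2:**
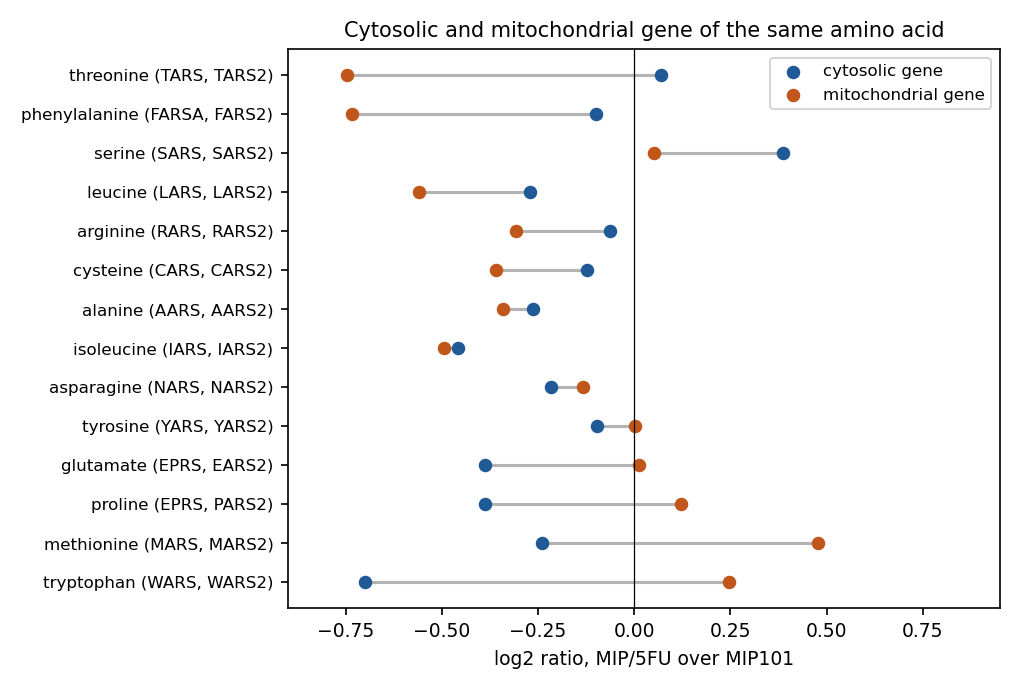
Log2 ratio of MIP/5FU over MIP101 for the cytosolic and the mitochondrial gene of 14 of the 15 amino acids, ordered by their difference, 1 library per line. The mitochondrial point is left of the cytosolic point in 8 rows and right of it in 6, and the longest line is that of tryptophan.

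Levels of different genes were compared by the authors' normalized coverage per base, which takes gene length into account. The cytosolic gene was covered more deeply than its mitochondrial counterpart for 15 of 15 amino acids in MIP/5FU and 15 of 15 in MIP101. The median excess was 5.20-fold in MIP/5FU and 5.61-fold in MIP101. Cytosolic genes had a median normalized coverage of 606 in MIP/5FU and 832 in MIP101, and mitochondrial genes of 124 in MIP/5FU and 158 in MIP101. In each group these medians fall on different genes in MIP/5FU and MIP101, so they do not give the change of a typical gene. The median log2 ratios were -0.13 for cytosolic and -0.31 for mitochondrial genes. The excess was largest for serine, 18.1-fold in MIP/5FU and 14.3-fold in MIP101, and smallest for leucine, 1.45-fold in MIP/5FU and 1.19-fold in MIP101. NARS led in both lines, with a normalized coverage of 1580 in MIP/5FU and 1867 in MIP101. FARS2 was lowest in MIP/5FU at 53.3 (90.1 in MIP101), and SARS2 was lowest in MIP101 at 66.7 (67.7 in MIP/5FU). For tryptophan the cytosolic excess was 5.60-fold in MIP/5FU and 10.8-fold in MIP101, and for threonine it was 9.86-fold in MIP/5FU and 5.61-fold in MIP101.

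**Figure D3:**
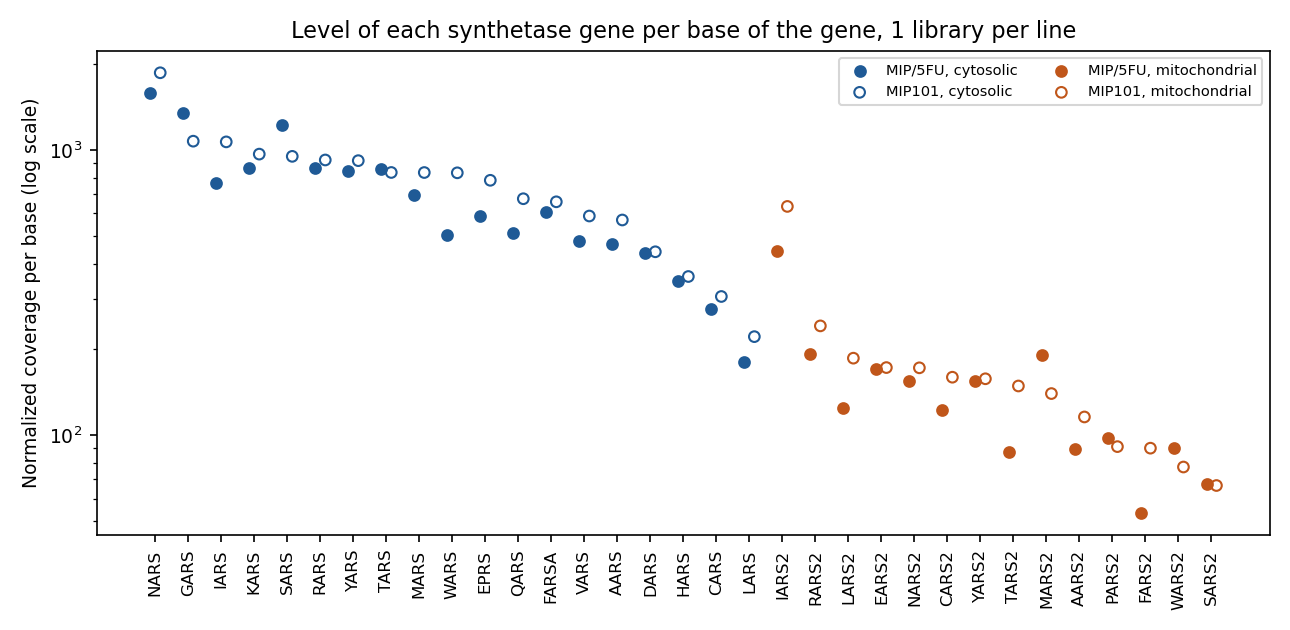
The authors' normalized coverage per base of 33 of the 34 synthetase genes (log axis), filled for MIP/5FU and open for MIP101, 1 library per line, ordered within each compartment by the MIP101 value. Cytosolic genes run from 181 to 1580 in MIP/5FU and 222 to 1867 in MIP101, mitochondrial genes from 53.3 to 443 in MIP/5FU and 66.7 to 635 in MIP101.

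Synthetase genes are scattered over the genome, so each was placed beside the 40 nearest tested protein-coding genes of its chromosome. Across the 34 genes the ratio of the synthetase and the median ratio of its neighbours had a Pearson correlation of 0.80 (Spearman 0.76), and 0.75 without the 2 genes farthest from the median. With the 20 nearest genes the Pearson correlation was 0.72. It was 0.75 over the 19 cytosolic and 0.87 over the 15 mitochondrial genes. The same comparison gave 0.30 over 14135 tested protein-coding genes, and 0.51 over the 8448 of them with at least as many reads as the least read synthetase. The points share both libraries, and neighbouring genes share neighbours, so this is a description only. DNA copy number was not measured.

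The neighbours' median was below 0 for 8 of 19 cytosolic and 10 of 15 mitochondrial genes. The median over these values was 0.02 for cytosolic and -0.17 for mitochondrial genes. The synthetase was below its neighbours for 15 of 19 cytosolic and 10 of 15 mitochondrial genes, and the median of member minus neighbours was -0.14 for cytosolic and -0.09 for mitochondrial genes. The cytosolic median of member minus neighbours was thus slightly below the mitochondrial median, while for the ratios themselves the cytosolic median was the higher. These group values were not recomputed with fewer neighbours. Whether chromosomal position contributes to the difference between compartments was not tested.

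GARS at 0.36 lay beside neighbours with a median of 0.35, or 0.54 over the 20 nearest genes, and EPRS at -0.39 beside neighbours at -0.41. IARS2, which lies near EPRS on chromosome 1 and shares neighbours with it, was at -0.50 beside -0.39, and FARS2 at -0.73 beside -0.56. Others stood apart from their surroundings. IARS at -0.46 was beside neighbours at 0.01, and 3 of the 40 were lower. TARS2 at -0.75 was beside -0.23, with 6 of 40 lower, and WARS at -0.70 beside -0.35, with 4 of 40 lower. MARS2 at 0.48 was beside 0.08, with 36 of 40 lower, and SARS at 0.39 beside 0.10, with 33 of 40 lower.

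**Figure D4:**
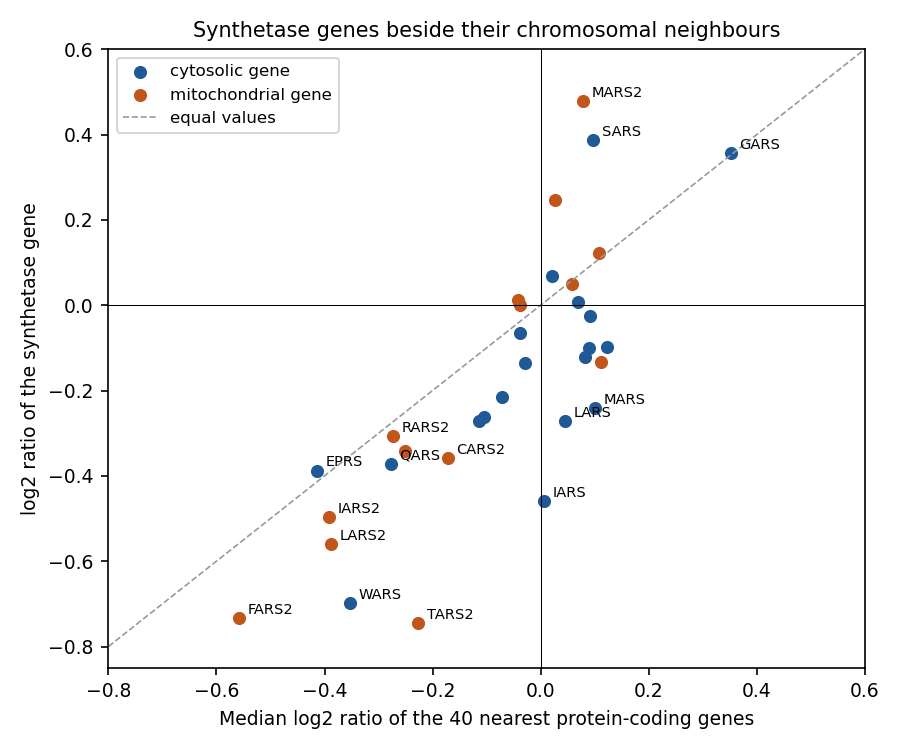
Log2 ratio of 33 of the 34 synthetase genes (vertical) against the median log2 ratio of its 40 nearest tested protein-coding genes (horizontal), 1 library per line, with the dashed line marking equal values. GARS and EPRS lie close to the line with these 40 neighbours, while IARS, TARS2 and WARS lie below it and MARS2 and SARS above it.

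The series was made to find alternative expression, so parts of the synthetase transcripts were compared relative to their genes. The splicing index subtracts the log2 ratio of the gene from that of one of its features. It is given with a counting interval that leaves 0.1% outside, and a feature was called at an absolute index of at least 1. Of 599 tested exon regions, 0 were called, beside 0.164% higher and 0.112% lower among all exon regions. Of 552 tested junctions, 0 were called, beside 0.0559% and 0.0997% of all junctions. Of 39 transcripts with features of their own, 0 were called, beside 0.505% and 0.203%. The index lay within 0.5 of 0 for 98.8% of the exon regions and 94.9% of the junctions of synthetase genes, beside 96.4% and 87.2% over all genes. The index scatters more at low counts, and these shares too are not matched for depth.

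Smaller shifts had an interval excluding 0 in 8 exon regions above and 3 below, beside 1.96% and 1.23% of all exon regions. The largest was region 18b of TARS2, 333 noncoding bases at the 3′ end of the gene (chromosome 1, 148746370 to 148746702). It had 295 read equivalents (coverage divided by the mean bases per read) in MIP/5FU and 640 in MIP101, an index of 0.50 (0.15 to 0.83). It also stands for the 1 transcript of synthetase genes whose interval lay above 0, beside 4.54% of all transcripts. Region 20a of LARS, 83 coding bases, had 214 read equivalents in MIP/5FU and 614 in MIP101, an index of -0.38 (-0.77 to -0.01). Region 1b of IARS, 79 noncoding bases, had 435 in MIP/5FU and 878 in MIP101, an index of 0.31 (0.03 to 0.59). Region 21a of MARS, at the 3′ end, had 949 in MIP/5FU and 1693 in MIP101, an index of 0.27 (0.08 to 0.47). It overlaps DDIT3 on the opposite strand by 61 bases, and DDIT3 had a log2 ratio of 0.70. The libraries do not mark strand, so reads there cannot be assigned to either gene with certainty. Region 23a of CARS had 841 in MIP/5FU and 1444 in MIP101, an index of 0.21 with an interval that barely leaves out 0.

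Among junctions, KARS exon 3 to exon 4 had 462 reads in MIP/5FU and 716 in MIP101, an index of 0.37 (0.08 to 0.65). NARS exon 10 to exon 11 had 1162 reads in MIP/5FU and 2867 in MIP101, an index of -0.22 (-0.39 to -0.06). These were the 1 junction above and the 1 below with an interval excluding 0, beside 0.243% and 0.637% of all junctions. Of the 27 tested junctions that skip an exon, 0 had an interval excluding 0. Of these 27, 16 are in an annotated transcript.

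Reads that cross an exon-intron boundary were few. Of 139 tested boundaries, 3 were called higher and 0 lower, beside 0.741% and 0.122% of all boundaries. The same 3 were those with an interval above 0, beside 1.18% of all boundaries. The boundary after exon 19 of AARS had 21 reads in MIP/5FU and 9 in MIP101, an index of 2.31 (0.46 to 4.61). That after exon 19 of QARS had 18 in MIP/5FU and 11 in MIP101, an index of 1.93 (0.07 to 4.03), and that before exon 19 of MARS had 19 in MIP/5FU and 11 in MIP101, an index of 1.87 (0.05 to 3.96). None of the 3 was called when the gene ratio was taken from the median of the gene's boundaries or when the read minimum was doubled. The median index was 0.17 over the tested boundaries of synthetase genes and 0.08 over all boundaries.

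WARS has alternative first exons and an exon 3 that can be skipped. Junction reads leaving exon 2, and not exon 1, made up 14.8% in MIP/5FU (29 of 196, Clopper-Pearson 95% interval 10.1 to 20.6) and 14.0% in MIP101 (93 of 662, 11.5 to 16.9). Reads that joined exon 4 without exon 3 made up 18.4% (13.2 to 24.5) in MIP/5FU and 18.1% (15.3 to 21.3) in MIP101. The shares differ by less than their counting error. In KARS, chosen for a closer look after its values were seen, the junction from exon 2 into exon 3 took 51.0% of reads in MIP/5FU (49 of 96, 40.6 to 61.4) and 62.7% in MIP101 (111 of 177, 55.1 to 69.9). These intervals overlap.

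Genes around the synthetases were taken from lists of the same process. Of 23 tested genes of the ATF4 and amino acid response, 6 were higher by 1.5-fold or more in MIP/5FU and 0 were lower by as much, beside 8.67% and 8.14% of all tested genes, with a median log2 ratio of 0.20. Their intervals lay above 0 in 16, beside 39.8% of all tested genes, and below 0 in 4, beside 35.7%. The cystine transporter SLC7A11 was highest, with 81.1 RPM in MIP/5FU and 42.8 RPM in MIP101, and DDIT3, a stress transcription factor, had 13.2 RPM in MIP/5FU and 8.10 RPM in MIP101. ATF4 itself had 420 RPM in MIP/5FU and 382 RPM in MIP101, a log2 ratio of 0.14. The asparagine synthetase gene ASNS, a classical target, was at -0.06 and the cysteine pathway gene CTH at -0.57. The median log2 ratio of the cytosolic synthetases, -0.13, was lower than the 0.20 of this list. MYC, which can bind CACGTG, had 175 RPM in MIP/5FU and 268 RPM in MIP101, 1.53-fold lower.

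Lists closer to the synthetases lay near the median of all genes. Of 5 tested genes of tRNA editing and peptidyl-tRNA release the median was 0.00. SEPSECS, which makes selenocysteinyl-tRNA, was 1.53-fold lower (23.1 RPM in MIP/5FU, 35.4 RPM in MIP101), and PTRH2, a mitochondrial peptidyl-tRNA hydrolase, was at -0.25. Of 4 genes for mitochondrial glutaminyl-tRNA and formylmethionyl-tRNA the median was -0.07, with QRSL1, the amidotransferase subunit A, at -0.37 and GATC, its subunit C, at -0.09. Of 5 tested cytosolic elongation factors the median was 0.09, with EEF1A1, which delivers charged tRNA to the ribosome, at -0.33 and EEF1D at 0.32. Of 9 mitochondrial translation factors the median was -0.04, with the initiation factor MTIF2 at -0.44 and the elongation factor GFM1 at -0.16. In bulk RNA, fewer cells with a transcript and less of it per cell cannot be told apart.

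**Figure D5:**
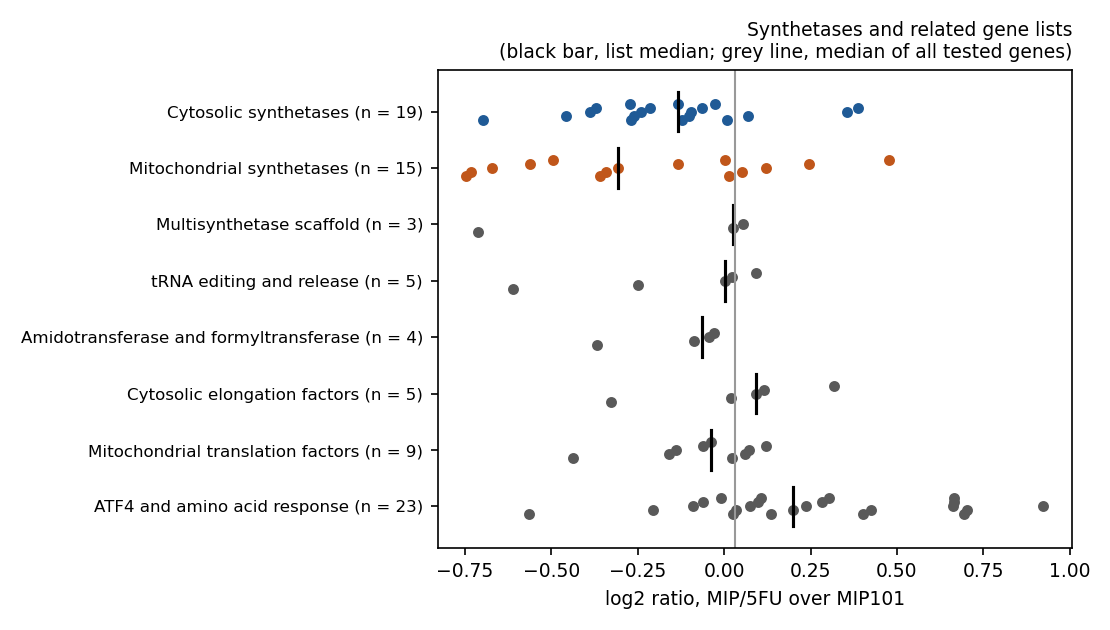
Log2 ratio of MIP/5FU over MIP101 for each tested gene of the cytosolic and mitochondrial synthetases and of 6 related lists, 1 library per line, with black bars at list medians and the grey line at the median of all tested genes. The synthetase medians (-0.13 cytosolic, -0.31 mitochondrial) lie left of the grey line and that of the ATF4 list (0.20) right of it.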

How the data were processed

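The members and lists were chosen with earlier results of these data known. Polyadenylated RNA was converted to cDNA with random hexamers, sheared, amplified and read as pairs, per the labels' protocols, which mark no strand. The authors placed reads on features of Ensembl release 53 genes on hg18, per the file names and the submitters' processing notes; the aligner was not stated in the sources used. The gene, junction and boundary tables as deposited hold raw read counts per feature. The authors also deposited coverage, a signal summed in bases over each feature, and the same per base after normalization. Exon region and transcript tables hold coverage without counts, so read equivalents were computed with 39.8 bases per read in MIP/5FU and 40.4 in MIP101.

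Gene ratios are log2 ratios of shares of gene reads with a pseudocount of 0.5 reads. Genes needed a sum of 100 reads over the libraries, and 95% intervals are exact conditional binomial ones. The splicing index needed 50 read equivalents (exon regions, transcripts) or 20 reads (junctions, boundaries), and a gene with 200 reads in all and 10 in each library. Its interval takes the gene ratio as fixed. Full values were given for the 5 highest and 5 lowest ratios in each compartment and their amino acid partners, and of each related list for the 2 largest absolute ratios; ATF4, ASNS, CTH, SCYE1 and the older-symbol synthetases were added after their values were seen. The values of 1 member are not reported here, though it is counted in the group summaries. Named features were those called and the 5 largest of each kind with an interval excluding 0. The promoter search was not planned and came after the gene ratios. With 1 library per line there was no test between lines. The gene and exon region steps were tested on simulated data. TMM factors came from edgeR 4.0.16 in R 4.3.3. The other steps used Python 3.11.15, scipy 1.17.1, pandas 2.3.3, numpy 2.4.6 and, for figures, matplotlib 3.10.9.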

Additional observations from a re-analysis of the deposited data

How the results depend on the processing

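No paired analysis was possible because each line has 1 library, and for the same reason no library could be left out. No gene was called at 2-fold under any alternative run, and a 4-fold cut could add none. No gene whose main interval excluded 0 changed the sign of its ratio. Scaling by the median ratio, by TMM factors or by the authors' normalized coverage moved all ratios down by 0.03, 0.03 and 0.02, and the cytosolic median to -0.17, -0.16 and -0.16. DARS, YARS2 and EARS2, at about 0, changed sign there, and 31 of 34 genes kept theirs. With GARS and KARS left out, the cytosolic median was -0.22 and it was 0.092 above the mitochondrial one. In alternatives chosen after seeing the data, counting the row named HARS2 as mitochondrial gave a mitochondrial median of -0.22 and a difference of 0.085, and adding the older-symbol synthetases gave -0.20 and 0.067. The median difference between compartments thus depends on which genes are counted. The 3 boundary calls became 0 with the gene ratio from the median of features and 0 with the read minimum doubled. Taking the gene ratio from the median of exon regions moved no gene by more than 0.11. Leaving out EARS2, MARS, SARS2 and YARS, overlapped by another gene with at least 1000 reads, gave a mitochondrial median of -0.34 and a difference of 0.21. The cytosolic median stayed at -0.13, and the counts at 1.5-fold did not change. SARS2 rests on the fewest reads over both libraries, 4980, and FARS2 on the fewest in MIP/5FU, 1271. With 20 in place of 40 neighbours, 7 of 34 neighbour medians moved past their limit.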
